A study of Mus musculus with 55 samples.

Results

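The pocket protein genes Rb1, Rbl1 and Rbl2 and the E2f genes E2f1, E2f2, E2f3, E2f4, E2f5, E2f7 and E2f8 were followed across samples of a mouse small cell lung cancer model. These 10 genes were chosen by symbol, and all 10 were present among the 15479 genes of the PRMK and PRM count table and the 51912 genes of the sgMeis2 and sgScramble table. All 10 also passed the filter on low counts in both tables, which left 13914 and 16260 genes for testing. Of the 55 samples of the series, 12 gave RNA counts and 26 gave peaks that were used here. RNA came in 4 groups of 3 libraries. Called peaks came in 13 groups of 2 libraries, for open chromatin (ATAC-seq) and, by CUT&Tag, for H3K4me1, H3K4me2, H3K4me3 and the methyltransferase KMT2C.

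Every group shared the same base. Organoids were transplanted into the left lung lobe of recipient mice after they had been given a guide against Rb1, a guide against 1 further gene and a retroviral MSCV-Myc construct, and this genotype is named PRM. PRMK stands for PRM with a further guide against Kmt2c. The plasmid lists of the PRMK RNA samples contain no Kmt2c guide, so that guide is known there only from the name. The sgMeis2 and sgScramble groups carry the PRM guides and a guide against Kmt2c with MSCV-Myc, plus a guide against Meis2 or a scrambled guide. In the PRMK libraries for H3K4me2, H3K4me3 and KMT2C, the labels of replicate 1 also list a Meis2 guide and those of replicate 2 a scrambled guide. Organoids for ATAC were harvested 3 days after culture. PRM peak libraries came from lung and, for H3K4me1, KMT2C and ATAC, also from liver. No group without the Rb1 guide was analysed here, so the data compare levels among Rb1-targeted samples and hold no level from tissue with intact Rb1. The labels do not say whether replicates came from separate animals, and p-values then measure the spread between these samples.

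The retinoblastoma protein and its relatives p107 (Rbl1) and p130 (Rbl2) are called pocket proteins because a pocket in each of them holds E2F transcription factors and keeps their target genes silent. Cyclin-dependent kinases phosphorylate the pocket proteins late in G1, the E2Fs are released, and the genes of DNA replication are transcribed. E2f1, E2f2 and E2f3 are usually classed as activators. E2f4 and E2f5 act mainly as repressors together with p107 and p130, as part of the DREAM complex of resting cells. E2f7 and E2f8 are atypical: they bind DNA without a DP partner, bind no pocket protein, and repress E2F targets. Loss of RB1 is a defining genetic event of small cell lung cancer.

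Several of these genes carry E2F sites in their own promoters, and the letters of those sites were therefore looked for first. Promoter sequences, from 250 bases before to 50 bases after each listed start, came from RefSeq on GRCm38.p6, the same assembly as mm10. They covered 9 promoters of 7 of the genes, and Rb1, E2f4 and E2f5 had no entry. The search used the 8-letter forms TTTCCCGC, TTTCGCGC, TTTGCCGC and TTTGGCGC on both strands. They occurred in 4 of the 9 promoters, and in 744 of all 32851 promoters of the same length (2.26%). The same forms without their first T, 7 letters that lie inside the 8-letter forms, occurred in 5 of the 9 and in 3145 of all promoters (9.57%). The matching stretches are shown because several of these genes are themselves known E2F targets, and they are printed 5′ to 3′ on the strand of the gene with the match in capitals. A match is a run of letters and was not tested as a binding site.
Rbl1 (chr2:157204535-157204576, minus strand): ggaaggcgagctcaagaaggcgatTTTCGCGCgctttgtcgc
E2f2 (chr4:136172302-136172323, plus strand): gcggcatatagTTTGGCGCtaa
E2f3 (chr13:29986064-29986098, minus strand): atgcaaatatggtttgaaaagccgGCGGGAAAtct
E2f7 (chr10:110745217-110745272, plus strand): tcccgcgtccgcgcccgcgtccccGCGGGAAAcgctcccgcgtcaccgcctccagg
E2f8 (chr7:48881677-48881731, minus strand): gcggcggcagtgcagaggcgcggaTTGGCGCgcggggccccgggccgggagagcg

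In Rbl1 the match begins 18 bases upstream of the start, in E2f3 11 bases upstream and in E2f7 198 bases upstream, and in E2f2 it lies 39 bases past the first of the 2 listed starts. The capitals of E2f3 and E2f7 show TTTCCCGC as read on the opposite strand. E2f8 held only the 7-letter form, 111 bases upstream of its listed start. Neither form was found in the listed promoters of E2f1 and Rbl2, nor at the second starts of E2f2 and E2f3, which says only that these letters are not in those windows. The windows of E2f1 and E2f8 lie inside their genes. They reach 154569676 and 48881846, while the genes, both on the minus strand, end at 154569892 and 48882073. Sequence upstream of those gene ends was not searched.

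The RNA libraries held 12013253 to 24389041 counts each. Levels are given as CPM, the count of a gene scaled to a fixed library total, after TMM, a method that sets the total of each library so that most genes do not differ. Log2 fold changes, their standard errors (SE) and adjusted p-values come from the edgeR quasi-likelihood test across all genes of a table with Benjamini-Hochberg adjustment, and a gene was called when its adjusted p was under 0.05. The PRM libraries were far less alike than the others: within the group they correlated at 0.778 to 0.863, against 0.937 to 0.971 for PRMK. Neuroendocrine markers summed to 130.0 CPM in PRM library 6 and to 3855 to 6195 CPM in the other PRM and PRMK libraries, and Nkx2-1 was at 0 in PRM library 6. In the other table sgMeis2 library 3 stood apart, at 0.971 and 0.972 with its 2 replicates. Without PRM library 4 edgeR called 796 genes (5.59%), and without sgMeis2 library 3 it called 46 (0.278%). The columns of the PRM libraries are numbered 4 to 6, as used here, while the sample titles number them 3 to 5. The labels name a strand-specific kit for PRM RNA alone, and library preparation and genotype cannot be told apart. In bulk RNA a lower level can mean fewer cells of a type or less RNA per cell, and the 2 cannot be told apart.

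The edited and introduced genes were read first. Values are given in the order of libraries 1 to 3 for PRMK and 4 to 6 for PRM. Kmt2c, the gene whose guide separates the genotypes by name, was at 85.1, 84.4 and 104.6 CPM in PRMK and at 113.3, 186.6 and 67.6 CPM in PRM. The groups overlapped. A guide leaves small insertions or deletions, so a transcript level does not show whether the protein is made. Myc was at 272.5, 311.8 and 205.1 CPM in PRMK and at 1140, 2306 and 2059 CPM in PRM, with no overlap. Its log2 fold change was -2.80 (SE 0.36, edgeR adjusted p = 0.158, DESeq2 adjusted p = 3.67e-10). Myc, a known inducer of the activator E2f genes, therefore differed beside each result of PRMK against PRM below, and its part in them was not tested.

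In PRMK against PRM, edgeR called 0 of the 10 family genes, beside 0 of 13914 genes in all (0.0%). At an unadjusted edgeR p under 0.05 there was 1 family gene, E2f7, against 17.1% of all genes. DESeq2 called E2f7 alone, as higher, against 8.57% of all genes (3.97% higher and 4.6% lower), and limma voom called none. Log2 fold changes were above 0 for 4 of the 10 (Rb1, E2f2, E2f7 and E2f8) and below 0 for the other 6, and 48.6% of all genes were above 0. The groups did not overlap for E2f7, which was higher, and for E2f4, which was lower, and 29.7% of all genes had groups that did not overlap. On counts simulated with a common spread per gene for both groups, edgeR found 1 of 67 genes changed 2-fold, 6 of 67 changed 4-fold and 48 of 66 changed 16-fold. Changes of 2-fold were thus mostly not detected in that setting. The real groups differ in spread, so it does not show what was detectable for genes of small spread. DESeq2 found 6, 37 and 65 of them, with 77 false calls. The plot of levels by library shows how widely the PRM libraries spread for most of the family.

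**Figure D1:**
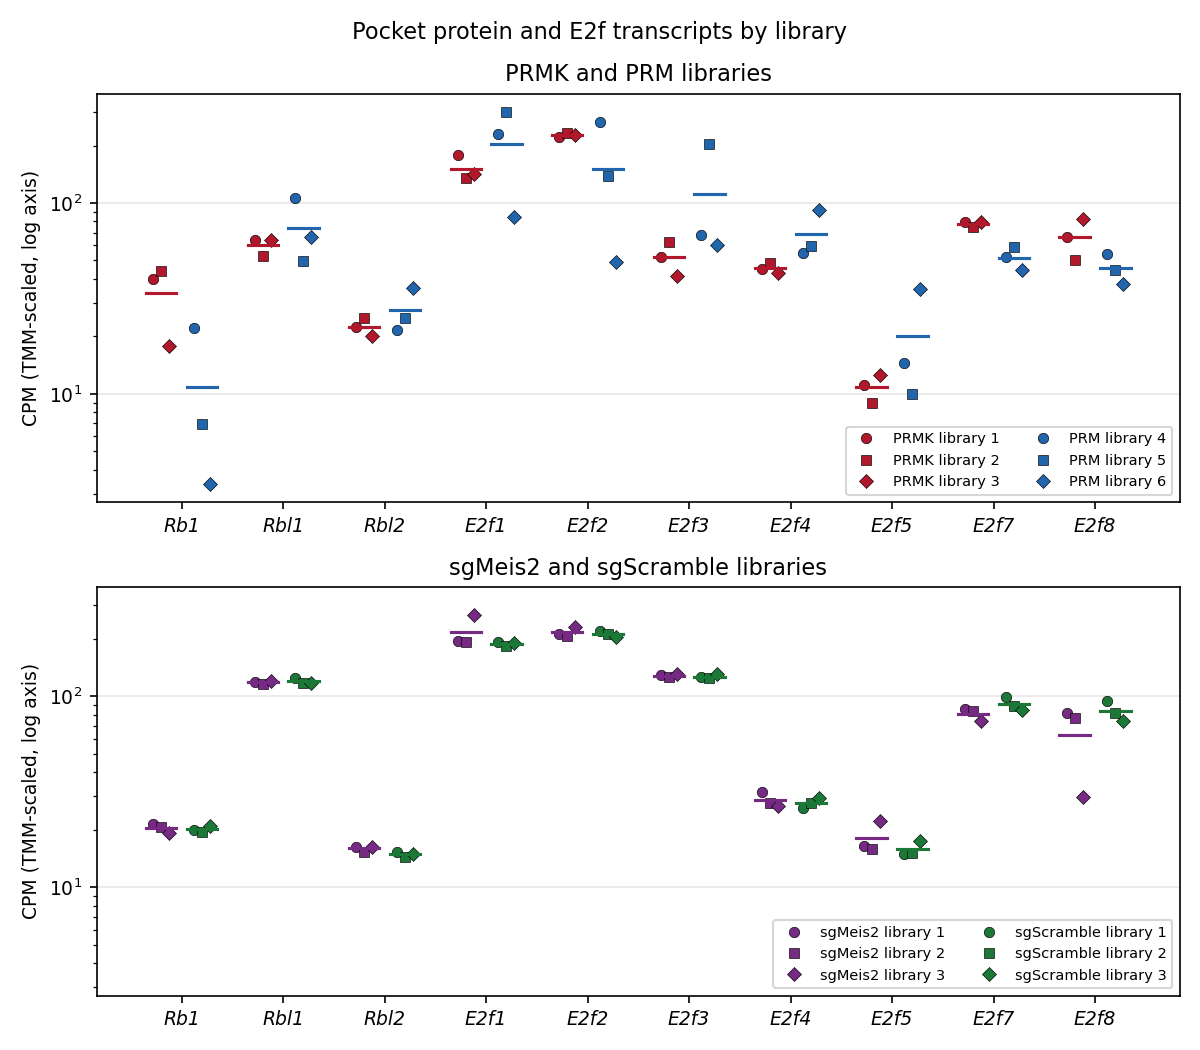
Level of each gene in every RNA library, in CPM after TMM scaling on a log axis, with a short line at the group mean, for PRMK and PRM (upper panel) and sgMeis2 and sgScramble (lower panel). PRM libraries spread over 3.38-fold or more for Rb1, E2f1, E2f2, E2f3 and E2f5, while E2f7 is higher in all 3 PRMK libraries than in any PRM library, and in the lower panel E2f8 of sgMeis2 library 3 lies apart.

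Among the pocket proteins, Rb1, the gene every tumour was edited for, was at 40.0, 44.0 and 17.8 CPM in the PRMK tumours and at 22.2, 6.95 and 3.38 CPM in the PRM tumours. The means were 33.9 ± 14.1 and 10.8 ± 9.97 CPM (SD, n = 3 each), 3.13 times apart, but PRM library 4 was above PRMK library 3. The log2 fold change was 1.64 (SE 0.75, edgeR adjusted p = 0.327), and DESeq2 gave an adjusted p of 0.167. Counts behind these values ran from 38 to 994. PRM library 4 decided the size of this difference: without it the log2 fold change was 2.67 (edgeR adjusted p = 0.0639), and DESeq2 then called Rb1 (adjusted p = 0.000136, with 26.0% of all genes called). Without PRM library 6 it was 1.23.

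Markers of host cells also differed between these libraries, not in the order of Rb1 throughout. Leukocyte markers (6 of 10 in the table) summed to 467.0, 521.0 and 684.7 CPM in PRMK and to 494.6, 6.17 and 92.1 CPM in PRM, so library 4 was the highest of PRM for these cells and for Rb1, while PRMK library 3, the highest of all for these cells, was the lowest of PRMK for Rb1. Fibroblast markers (7 of 7) summed to 70.6 to 299.7 CPM in PRMK and to 343.6, 3.08 and 219.9 CPM in PRM. In PRM library 5 the fibroblast genes Col3a1, Dcn and Lum were at 0. Endothelial markers (4 of 6 in the table) summed to 79.1, 23.5 and 200.3 CPM in PRMK and to 38.6, 0.785 and 5.96 CPM in PRM. Of the 3 endothelial genes tested edgeR called 0 (0.0% of all genes), with 1, Kdr, higher at an unadjusted p under 0.05 (7.03% of all genes). DESeq2 called Kdr as higher in PRMK (adjusted p = 0.00494, with 3.97% of all genes called higher). In the DESeq2 fit without PRM library 4, which called Rb1 and 26.0% of all genes, host markers were called too. There 4 of 6 leukocyte markers and 3 of 4 endothelial markers were called as higher in PRMK, and 0 of 7 fibroblast markers were called. Host cells carry no Rb1 guide, and their part in the Rb1 difference was not tested. In the sgMeis2 and sgScramble libraries the leukocyte markers (10 of 10 in that table) summed to 4.18 to 5.85 CPM, and Rb1 was at 19.2 to 21.5 CPM, in a table that was normalized separately. Rb1 lies on chromosome 14, whose 340 genes of at least 10 CPM had a median log2 difference from the other libraries of -0.73 in PRM library 4, and of -0.19 to 0.28 in the other 5. The gene itself deviated by 0.49 in PRM library 4 and by -1.47 and -2.41 in libraries 5 and 6. The part of the chromosome was not tested.

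Rbl1, whose product p107 rises in cycling cells, was at 63.7, 52.6 and 63.6 CPM in PRMK and at 106.5, 49.8 and 66.5 CPM in PRM. Its log2 fold change was -0.31 (SE 0.31, edgeR adjusted p = 0.633). Rbl2, whose product p130 prevails in resting cells, was at 22.4, 25 and 19.96 CPM in PRMK and at 21.6, 24.8 and 36.0 CPM in PRM. Its log2 fold change was -0.29 (SE 0.29, edgeR adjusted p = 0.630). The groups overlapped for both, and leaving out each library in turn moved the values from -0.52 to -0.01 for Rbl1 and from -0.49 to -0.05 for Rbl2.

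The activators E2f1, E2f2 and E2f3 gave no common direction. E2f1 was at 177.4, 135.7 and 141.4 CPM in PRMK and at 228.8, 299.4 and 84.1 CPM in PRM, so the PRM libraries lay both above and below all of PRMK. Its log2 fold change was -0.43 (SE 0.45, edgeR adjusted p = 0.646). Without PRM library 6 it was -0.80, called by DESeq2 (adjusted p = 0.0255, with 14.8% of all genes called) and not by edgeR (adjusted p = 0.152). Without PRM library 5, the highest, it was -0.04. E2f2 was almost constant in PRMK, at 222.9, 231.8 and 227.4 CPM, and varied 5.46-fold in PRM, at 266.1, 138.9 and 48.8 CPM. Its log2 fold change was 0.59 (SE 0.56, edgeR adjusted p = 0.612). It was 1.24 without PRM library 4 and 0.17 without PRM library 6. The lowest level of both E2f1 and E2f2 was in PRM library 6, the library low in neuroendocrine markers.

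E2f3 was at 52.2, 62.6 and 41.6 CPM in PRMK and at 68.2, 204.0 and 60.4 CPM in PRM. PRM library 5 stood apart, 3.38 times above PRM library 6, and PRMK library 2 overlapped PRM library 6. The log2 fold change of -1.09 (SE 0.51, edgeR adjusted p = 0.338) fell to -0.30 without PRM library 5. E2f3 lies on chromosome 13, whose 357 genes of at least 10 CPM had a median log2 difference of 0.62 in PRM library 5 and of -0.23 to 0.00 in the other libraries, and the gene itself deviated there by 1.73. The part of the chromosome in that level was not tested.

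The pocket-bound repressors were both lower in PRMK on average. E2f4 was at 45.3, 48.4 and 42.7 CPM in PRMK (45.5 ± 2.83, SD, n = 3) and at 54.4, 59.2 and 91.7 CPM in PRM (68.4 ± 20.3). All PRMK libraries were below all PRM libraries. The log2 fold change was -0.59 (SE 0.26, edgeR unadjusted p = 0.0620, adjusted p = 0.312), and it was -0.32 without PRM library 6. E2f4 lies on chromosome 8, whose 567 genes of at least 10 CPM had median log2 differences of -0.240 to 0.006 in PRMK and of 0.046 to 0.128 in PRM. The gene itself deviated by -0.418 to -0.235 in PRMK and by -0.025 to 0.854 in PRM. The part of the chromosome was not tested. E2f5, with 172 counts at the lowest, was at 11.1, 8.98 and 12.6 CPM in PRMK and at 14.5, 9.98 and 35.4 CPM in PRM. PRM library 6 alone was high, and without it the log2 fold change went from -0.87 (SE 0.53, edgeR adjusted p = 0.438) to -0.16.

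The atypical E2Fs had the smallest coefficients of variation of the family in PRM, 13.7% for E2f7 and 17.7% for E2f8. E2f7 was at 79.9, 74.4 and 79.1 CPM in PRMK (77.8 ± 2.98, SD, n = 3) and at 52.2, 58.6 and 44.4 CPM in PRM (51.7 ± 7.09). Every PRMK library was above every PRM library, and the means were 1.50 times apart. The log2 fold change was 0.59 (SE 0.19, edgeR unadjusted p = 0.0207, adjusted p = 0.235, DESeq2 adjusted p = 0.0364). It stayed between 0.49 and 0.69 when each library was left out. DESeq2 called E2f7 without any 1 of the PRM libraries and did not call it without any 1 of the PRMK libraries. The number of all genes called moved the same way. DESeq2 called 26.0% of all genes without PRM library 4 and 14.8% without PRM library 6. It called far fewer without any 1 of the PRMK libraries, as listed in the last section. The authors' deposited table gives E2f7 a log2 fold change of 0.64 with an adjusted p of 0.0570. E2f7 lies on chromosome 10, whose 487 genes of at least 10 CPM had medians of 0.15 to 0.19 in the PRMK libraries and of -0.23 to -0.10 in the PRM libraries. The gene deviated by 0.26 to 0.40 in PRMK and by -0.62 to -0.24 in PRM, in the same direction as its chromosome, and the part of the chromosome was not tested. Such medians also separated PRMK from PRM for the chromosomes of Rbl1, Rbl2, E2f1, E2f2, E2f3, E2f4 and E2f5, and not for those of Rb1 and E2f8.

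E2f8 was at 66.1, 50.0 and 82.1 CPM in PRMK and at 53.8, 44.7 and 37.8 CPM in PRM. PRMK library 2 was below PRM library 4, so the groups overlapped, and the log2 fold change was 0.54 (SE 0.27, edgeR adjusted p = 0.351). It stayed above 0 in each run with 1 library left out, at 0.31 to 0.71.

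The family shared the uneven spread of the 2 groups. The coefficient of variation of the 10 genes had a median of 13.1% in PRMK and 46.5% in PRM, and PRM was the larger for 9 of the 10, the exception being E2f8. Over all 10103 genes of at least 10 CPM the medians were 11.2% and 35.6%, and PRM was the larger for 90.6%. The spread of the family was thus near that of genes in general.

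The guide against Meis2 was compared with the scrambled guide in PRMK samples. Meis2 itself was at 219.2, 224.1 and 136.5 CPM with the guide and at 258.6, 226.8 and 233.4 CPM without it, a log2 fold change of -0.31 (SE 0.19, edgeR adjusted p = 0.754). Leaving out each library in turn moved this value from -0.43 to -0.12. Here too 0 of the 10 family genes were called by edgeR, with 0 of 16260 genes in all (0.0%). At an unadjusted edgeR p under 0.05 there were 0 of 10, against 4.67% of all genes. That background was 2.2% higher and 2.47% lower. DESeq2 called 0 of 10 (0.118% of all genes, 0.0131% higher and 0.105% lower) and limma voom 0 of 10 (0.412%). The groups did not overlap for 1 of the 10, Rbl2, which was higher, against 16.0% of all genes (8.09% higher and 7.91% lower). Log2 fold changes were above 0 for 7 of the 10, against 50.8% of all genes. On counts simulated for this comparison, with a common spread per gene for both groups, edgeR found 59 of 67 genes changed 2-fold, with 14 false calls. The real groups differ in spread: the median coefficient of variation over all genes of at least 10 CPM was 11.9% for sgMeis2 and 4.44% for sgScramble. The simulation does not show what was detectable for genes of large spread, such as E2f8 (SE 0.34). Levels in these libraries were much tighter than in PRM, with a median coefficient of variation over the family of 6.66% for sgMeis2 and 3.89% for sgScramble.

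Pocket protein transcripts were nearly level. Rb1 was at 21.5, 20.8 and 19.2 CPM with the Meis2 guide and at 19.9, 19.4 and 21.1 CPM with the scrambled guide, a log2 fold change of 0.02 (SE 0.09). Rbl1 was at 118.9, 116.2 and 121.2 against 125.5, 117.7 and 118.1 CPM (log2 fold change -0.02, SE 0.07). Rbl2 was at 16.3, 15.4 and 16.3 against 15.2, 14.4 and 15.0 CPM (0.10, SE 0.09, edgeR adjusted p = 0.758). Each difference was about the size of its SE or below it.

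Among the E2f genes, the differences of E2f1, E2f5 and E2f8 rested on sgMeis2 library 3. E2f1 was at 196.0, 192.5 and 267.8 CPM with the Meis2 guide and at 192.8, 183.9 and 191.0 CPM with the scrambled guide, and its log2 fold change of 0.21 (SE 0.14, edgeR adjusted p = 0.754) became 0.03 without that library. E2f5 was at 16.5, 15.8 and 22.3 against 14.9, 15.1 and 17.5 CPM, and 0.20 (SE 0.16) became 0.02. E2f8 was at 81.6, 77.5 and 29.6 against 94.5, 82.2 and 74.5 CPM, and -0.41 (SE 0.34) became -0.08. In that library E2f1 and E2f5 were at their highest and E2f8 at its lowest level of all 6. Meis2 was also lowest there, at 136.5 CPM, against 219.2 and 224.1 CPM in sgMeis2 libraries 1 and 2. Whether these levels go together was not tested. E2f2 was at 212.2, 208.0 and 230.1 against 220.8, 213.7 and 205.9 CPM (log2 fold change 0.02, SE 0.08). E2f3 was at 129.6, 125.7 and 130.5 against 125.7, 124.5 and 130.6 CPM (0.02, SE 0.07). E2f4 was at 31.7, 27.6 and 26.6 against 25.9, 27.6 and 29.2 CPM (0.05, SE 0.10). E2f7, at 85.7, 83.5 and 74.0 against 98.8, 88.9 and 85.4 CPM, had a log2 fold change of -0.17 (SE 0.09, edgeR adjusted p = 0.754), with sgMeis2 library 1 just above sgScramble library 3.

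**Figure D2:**
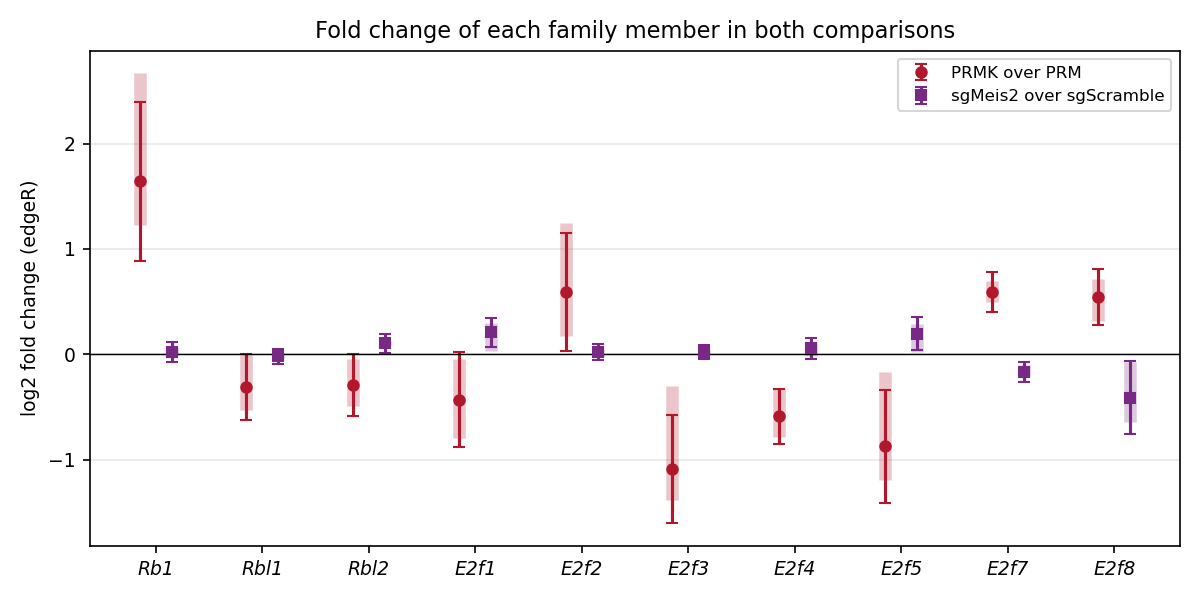
Log2 fold change of each gene from edgeR (vertical axis) with its standard error, for PRMK over PRM (circles) and sgMeis2 over sgScramble (squares), where the wide pale bar spans the values with each library left out in turn. The PRMK values reach from -1.09 for E2f3 to 1.64 for Rb1 with long bars, E2f7 has the shortest pale bar among the higher genes, and the sgMeis2 values lie between -0.41 and 0.21.

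Per unit of transcript length, the make-up of the family could be compared between genes. Lengths were those implied by the authors' own TPM values in the sgMeis2 table, and shares are of the length-scaled total of the pocket proteins or of the 7 E2f genes. In the pocket protein pool, Rb1 held 39.5%, 44.99% and 22.9% in PRMK and 19.0%, 11.9% and 4.59% in PRM, so the 2 groups did not overlap on this scale. Rbl1 was the largest share in 11 of the 12 libraries, at 49.3% to 78.1%, and the exception was PRMK library 2, where it held 42.1% and Rb1 was larger. In the sgMeis2 and sgScramble libraries Rb1 held 15.7% to 17.5%.

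In the E2f pool, E2f1 and E2f2 together made up most of the transcripts in every library but PRM library 6. There E2f4 held 30.8% and E2f5 14.5%, while in the other 5 libraries of that table E2f4 held 10.5% to 12.1% and E2f5 2.21% to 3.75%. E2f3 reached 21.9% in PRM library 5. E2f7 held 4.66% to 4.88% in PRMK and 2.59% to 3.74% in PRM, without overlap, and E2f8 held 6.84% to 11.1% and 4.46% to 6.96%, with overlap. In sgMeis2 library 3 the share of E2f1 was 38.4% and that of E2f8 3.11%, against 29.3% to 30.7% and 8.65% to 10.6% in the other 5 libraries of that table.

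**Figure D3:**
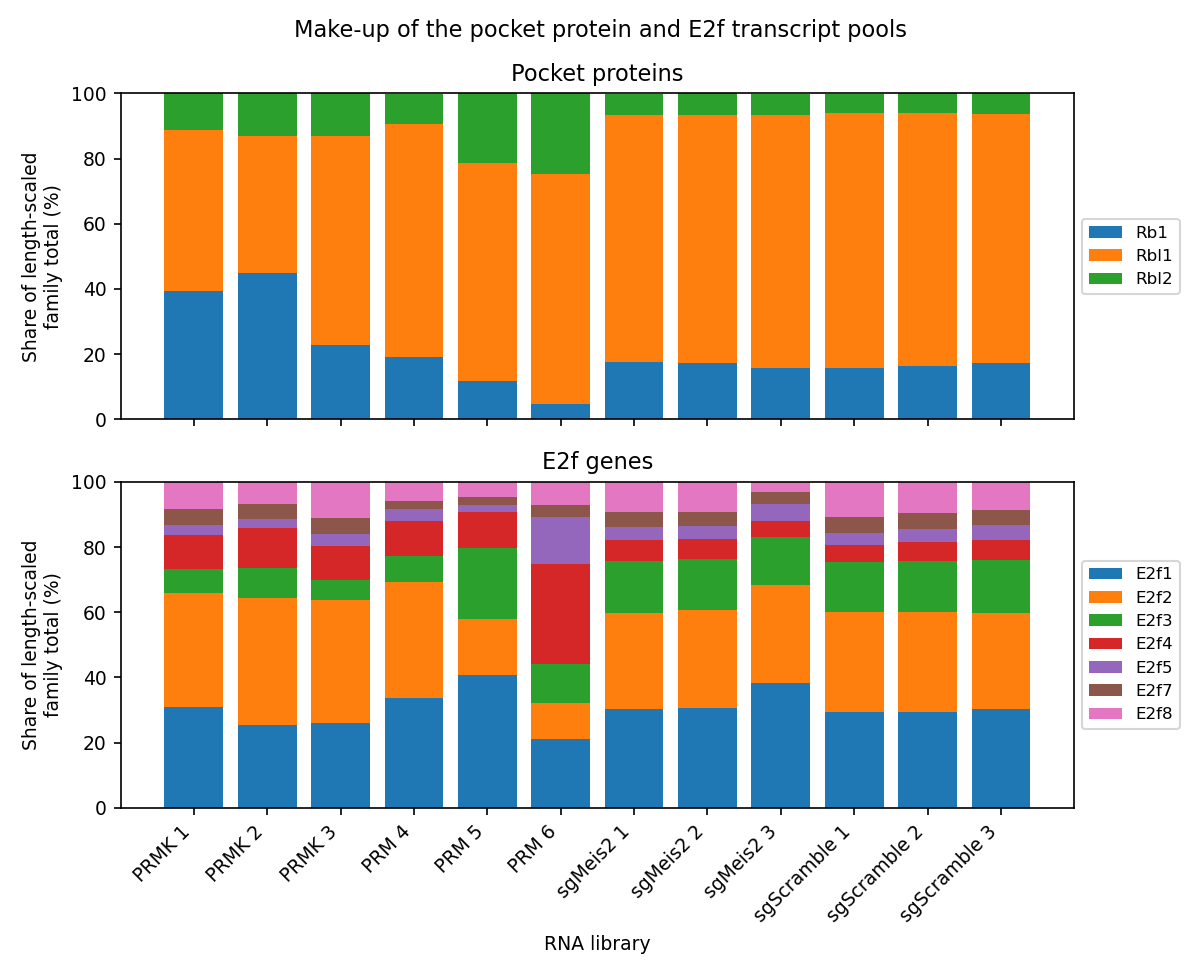
Share of each gene (vertical axis, percent) in the length-scaled total of the pocket protein genes (upper panel) and of the E2f genes (lower panel) in each of the 12 RNA libraries. Rb1 takes 22.9% to 44.99% in PRMK and 4.59% to 19.0% in PRM, and PRM library 6 differs from all others through its E2f4 and E2f5.

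Genes that act with the family were read from 6 lists. Of the cyclins and kinases that phosphorylate pocket proteins, 7 of 9 were tested in PRMK against PRM, and edgeR and DESeq2 called 0. At an unadjusted edgeR p under 0.05 there was 1, lower, against 10.1% of all genes. It was Ccnd3, a D-type cyclin, at 18.3, 14.7 and 14.9 CPM in PRMK and at 21.7, 33.1 and 79.9 CPM in PRM (log2 fold change -1.49, SE 0.51, edgeR adjusted p = 0.240). All PRMK libraries were below all PRM libraries. Cdk2, the partner of cyclins E and A, was at 103.4, 102.1 and 89.1 CPM in PRMK and at 46.5, 41.8 and 94.5 CPM in PRM, with PRM library 6 apart (0.69, SE 0.35, edgeR adjusted p = 0.361). Without PRM library 6 DESeq2 called Cdk2 and Ccne2 in this list (14.8% of all genes), and without PRM library 4 it called Ccnd3 (26.0% of all genes).

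The CDK inhibitors, which hold those kinases back, had a median log2 fold change of 0.77 over the 6 of 7 tested, with 5 above 0, beside a median of -0.02 over all genes. edgeR called 0 of 6, with 1 higher at an unadjusted p under 0.05 (7.03% of all genes), and DESeq2 called 1 as higher (3.97% of all genes). That was Cdkn1c (p57), at 15.4, 18.1 and 19.96 CPM in PRMK and at 4.65, 2.30 and 5.96 CPM in PRM, so all PRMK libraries were higher. Its log2 fold change was 2.05 (SE 0.46, edgeR adjusted p = 0.191, DESeq2 adjusted p = 0.000497). Cdkn2d (p19) was at 135.1, 105.2 and 119.3 CPM in PRMK and at 91.7, 60.8 and 23.2 CPM in PRM, also without overlap (1.03, SE 0.48, edgeR adjusted p = 0.332). Cdkn2c (p18) was at 418.3, 489.4 and 273.9 against 314.1, 254.7 and 28.6 CPM, with overlap. The lowest values of both Cdkn2c and Cdkn2d were in PRM library 6. Without it the median of the list was 0.57, and DESeq2 called Cdkn1c and Cdkn2a (14.8% of all genes). Without PRM library 4 the median was 1.46, and DESeq2 called Cdkn1a, Cdkn1c and Cdkn2d, all higher (26.0% of all genes called).

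The partners of E2F and the MuvB subunits (11 of 11 tested) had 3 genes above and 8 below 0 in PRMK, a median of -0.13. edgeR called none, with 1 lower at an unadjusted p under 0.05 (10.1% of all genes), and DESeq2 called Mybl2 only, as lower (4.6% of all genes). Without PRM library 6 DESeq2 called Mybl1 too (14.8% of all genes). Mybl2 (B-Myb), an E2F target that joins MuvB to switch on mitotic genes, was at 49.1, 39.4 and 49.1 CPM in PRMK and at 115.4, 267.1 and 120.9 CPM in PRM. All PRM libraries were higher, and the log2 fold change was -1.87 (SE 0.38, edgeR adjusted p = 0.190, DESeq2 adjusted p = 0.00124). It is 1 of the genes edgeR did call without PRM library 4 (5.59% of all genes). Its relative Mybl1 was at 28.0, 23.5 and 27.5 against 63.8, 69.8 and 22.9 CPM, and Tfdp1, the main DNA-binding partner of E2Fs, at 285.7, 286.1 and 350.7 against 322.4, 686.5 and 288.6 CPM. The groups overlapped for both. E2f6, a repressor that binds no pocket protein, was at 48.3, 54.2 and 52.8 against 48.5, 88.1 and 38.7 CPM (-0.18).

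Corepressors that pocket proteins recruit (8 of 8 tested) gave a median of -0.09, with 1 called by DESeq2 (8.57% of all genes) and 0 by edgeR (2 at an unadjusted p under 0.05, against 17.1% of all genes). Hdac1, a histone deacetylase, was at 162.0, 166.5 and 167.4 CPM in PRMK and at 97.1, 124.1 and 111.5 CPM in PRM, without overlap (log2 fold change 0.58, SE 0.17, edgeR adjusted p = 0.220, DESeq2 adjusted p = 0.0356). Kdm5a, an H3K4 demethylase first found as a protein that binds the retinoblastoma protein, was at 94.8, 96.5 and 92.9 against 118.0, 117.4 and 158.8 CPM, lower without overlap (-0.47, SE 0.19, edgeR adjusted p = 0.288).

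Targets of E2F at the G1 to S transition are the genes of DNA replication. Of 37 tested, 14 were above and 23 below 0, with a median of -0.21. edgeR called 0 of 37 (0 higher and 4 lower at an unadjusted p under 0.05, against 7.03% and 10.1% of all genes), and DESeq2 called Gins1 as lower (4.6% of all genes). The share at an unadjusted p was thus near that of all genes. Without PRM library 4, when 5.59% of all genes were called by edgeR and 26.0% by DESeq2, edgeR called 0 of the 37. DESeq2 then called Dtl, Gins1, Mcm4, Pole and Rrm2, all lower. Without PRM library 6, when DESeq2 called 14.8% of all genes, it called Gins1 only. Gins1, a subunit of the replicative helicase, was at 27.7, 29.1 and 25.4 CPM in PRMK and at 45.1, 64.1 and 42.2 CPM in PRM (-0.88, SE 0.25, edgeR adjusted p = 0.210, DESeq2 adjusted p = 0.0204). Dtl, a subunit of the ligase that destroys Cdt1, was at 102.7, 114.2 and 88.8 against 129.7, 213.3 and 167.3 CPM (-0.74, edgeR adjusted p = 0.235). For 8 of the 37 the groups did not overlap with PRMK lower, and for none with PRMK higher, against 14.6% and 15.1% of all genes.

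The G2 to M genes, which MuvB with B-Myb and FOXM1 turn on after E2F, had 3 of 22 above and 19 below 0, with a median of -0.21. edgeR called 0 of 22 (4 lower and 0 higher at an unadjusted p under 0.05, against 10.1% and 7.03% of all genes), and DESeq2 called Bub1 as lower (4.6% of all genes). Bub1, a spindle checkpoint kinase, was at 47.9, 44.2 and 52.4 CPM in PRMK and at 66.2, 126.1 and 123.6 CPM in PRM (-1.13, SE 0.29, edgeR adjusted p = 0.204, DESeq2 adjusted p = 0.0267). Aurka, a kinase of the spindle poles, was at 102.3, 101.0 and 110.7 against 180.6, 284.8 and 125.3 CPM (-0.91, SE 0.32, edgeR adjusted p = 0.245). All PRM libraries were higher for both. Without PRM library 4 edgeR called Bub1 and Bub1b among these genes (5.59% of all genes). DESeq2 then called Aurkb, Bub1, Bub1b and Cenpe (26.0% of all genes). Without PRM library 6 edgeR called none (0.0% of all genes), and DESeq2 called Aurka in place of Bub1 (14.8% of all genes). Foxm1 itself was at 190.3, 181.7 and 164.9 against 170.5, 170.9 and 93.0 CPM (0.31, SE 0.27).

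Under the Meis2 guide none of these 6 lists held a gene that edgeR (0.0% of all genes) or DESeq2 (0.118%) called. In the order above, edgeR tested 8, 7, 11, 8, 37 and 22 genes of the lists. At an unadjusted edgeR p under 0.05 there was 1 gene over all 6, lower, against 4.67% of all genes (2.47% lower). It was Tfdp2, the second DP partner of E2Fs, at 79.8, 77.2 and 67.5 CPM with the Meis2 guide and at 98.7, 86.2 and 83.4 CPM with the scrambled guide (-0.26, SE 0.10, edgeR adjusted p = 0.754). The list medians ran from -0.08 to 0.06, beside 0.00 over all genes. Cdkn2a, which encodes p16 and p19Arf and is known to rise when the retinoblastoma protein is lost, was at 122.3, 123.0 and 218.3 against 121.6, 126.8 and 126.7 CPM. Hdac2 was at 268.2, 271.9 and 461.2 against 272.8, 270.3 and 272.4 CPM, so sgMeis2 library 3 alone was high for both. Without that library the median of the CDK inhibitors went from 0.06 to -0.07 and that of the replication genes from 0.04 to -0.04.

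Chromatin at the family was read from the authors' called peaks, over each gene and 10 kb to each side. A start site was counted as marked when a peak lay within 1 kb of it in both libraries of a group. For 7 genes the listed starts were used, and for Rb1, E2f4 and E2f5, which had none, either end of the gene was accepted. With 2 libraries against 2, no exact permutation test can give a p under 0.333, so no test was made between groups of peak libraries. The genes lie, on GRCm38, at chr14:73192858-73325951 (Rb1), chr2:157145893-157204534 (Rbl1), chr8:91070057-91123844 (Rbl2), chr2:154559400-154569892 (E2f1), chr4:136172274-136196057 (E2f2), chr13:29906575-29986064 (E2f3), chr8:105297663-105305370 (E2f4), chr3:14578602-14606309 (E2f5), chr10:110745439-110787384 (E2f7) and chr7:48866429-48882073 (E2f8). Some windows reach other genes: Lpar6 lies inside Rb1, Aktip overlaps Rbl2, Rbis overlaps E2f5, Necab3 overlaps E2f1, and Exoc3l and Elmo3 flank E2f4.

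H3K4me3, the mark of active promoters, was present at all 10 starts in both PRM and both PRMK libraries, against 56.3% of 21887 genes in either genotype. The heights of these peaks, as the authors' lists give them, differed within the family. At E2f3 the highest signal stood at the 92.5th to 95.1st percentile of its own list in all 4 libraries and at E2f8 at the 89.8th to 96.9th, while the Rb1 peak was at the 34.2nd to 45.6th. The widest was at E2f2, where a single peak of 12008 bp in PRMK library 1 and 11140 bp in library 2 ran across both listed starts, and peaks of 8972 and 7562 bp in the PRM libraries covered the first alone. Rbl2 peaks ranked at 67.7 and 76.9 in PRM and at 42.3 and 32.7 in PRMK, and E2f4 peaks at the gene end away from Elmo3 at 73.5 and 80.9 in PRM and at 35.7 and 39.8 in PRMK. For both genes the 2 PRMK ranks were below the 2 PRM ranks. These are ranks within lists of different lengths, so they cannot show whether the signal itself changed.

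Of 21 H3K4me3 regions in the 10 windows, 18 had a peak in all 4 lung libraries (85.7%, against 55.3% of all regions). Among the peaks at or above the median total signal of each list it was 9 of 15 (60.0%, against 60.8%). No region was present in both PRMK and neither PRM library (1.26% of all regions), and none in both PRM and neither PRMK library (3.20%). Regions of these 3 kinds are called kept, gained and lost here. One kept region, chr14:73236491-73240977, lies inside Rb1 over the start of Lpar6.

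H3K4me2 marked 9 of the 10 starts in both PRM libraries (54.2% of genes) and in both PRMK libraries (60.6%). Rb1 was the exception in each, with a peak of 1611 bp at 1 gene end in PRMK library 1 only. Of 23 regions 16 were kept (69.6%, against 42.0%), 2 were gained (8.70%, against 8.07%) and 0 lost (1.36%). The gained regions were chr2:154556314-154561159, over the far end of E2f1 and the adjoining end of Necab3, and chr10:110733277-110737040, upstream of E2f7. The share gained was near the share over all regions.

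H3K4me1, the mark KMT2C places at enhancers, was found at few of the starts. It was present at E2f1, E2f2 and E2f4 in both lung PRM libraries (11.9% of genes) and at E2f1 and E2f2 in both lung PRMK libraries (11.2%). At E2f4 the peak was at the gene end next to Elmo3. It was counted only because either end was accepted for this gene, so it is not shown to mark a start of E2f4. E2f1 was densely covered: H3K4me1 peaks took up 55.9% and 47.3% of its window in PRM and 62.4% and 31.6% in PRMK, and only 1.23%, 1.79%, 1.59% and 3.88% of genes were covered as much or more in these 4 libraries. Rbl2 had no H3K4me1 peak in any of the 4.

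Of 20 H3K4me1 regions, 6 were kept (30.0%, against 24.7%), 5 gained (25%, against 15.6%) and 2 lost (10.0%, against 14.1%). E2f8 held 3 of the 5 gained regions, at chr7:48865372-48868779, chr7:48876226-48879916 and chr7:48886795-48889569. Its window was covered to 0% and 0% in PRM and to 27.7% and 14.9% in PRMK, where 13% and 12.4% of genes were covered as much. The median gene was at 0% in both PRM libraries and at 2.31% and 0% in the PRMK libraries. Over 1 Mb to each side of E2f8 the coverage was 12.9% and 12.7% in PRM and 18.5% and 10.9% in PRMK, so the surroundings were marked in all 4 libraries. The other gained regions were chr13:29913350-29918958 in E2f3 and chr4:136203074-136205509 beside E2f2. The lost regions were chr14:73256058-73259481 in Rb1 and chr8:105303354-105307856, which spans the end of E2f4 and the start of the Elmo3 interval.

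**Figure D4:**
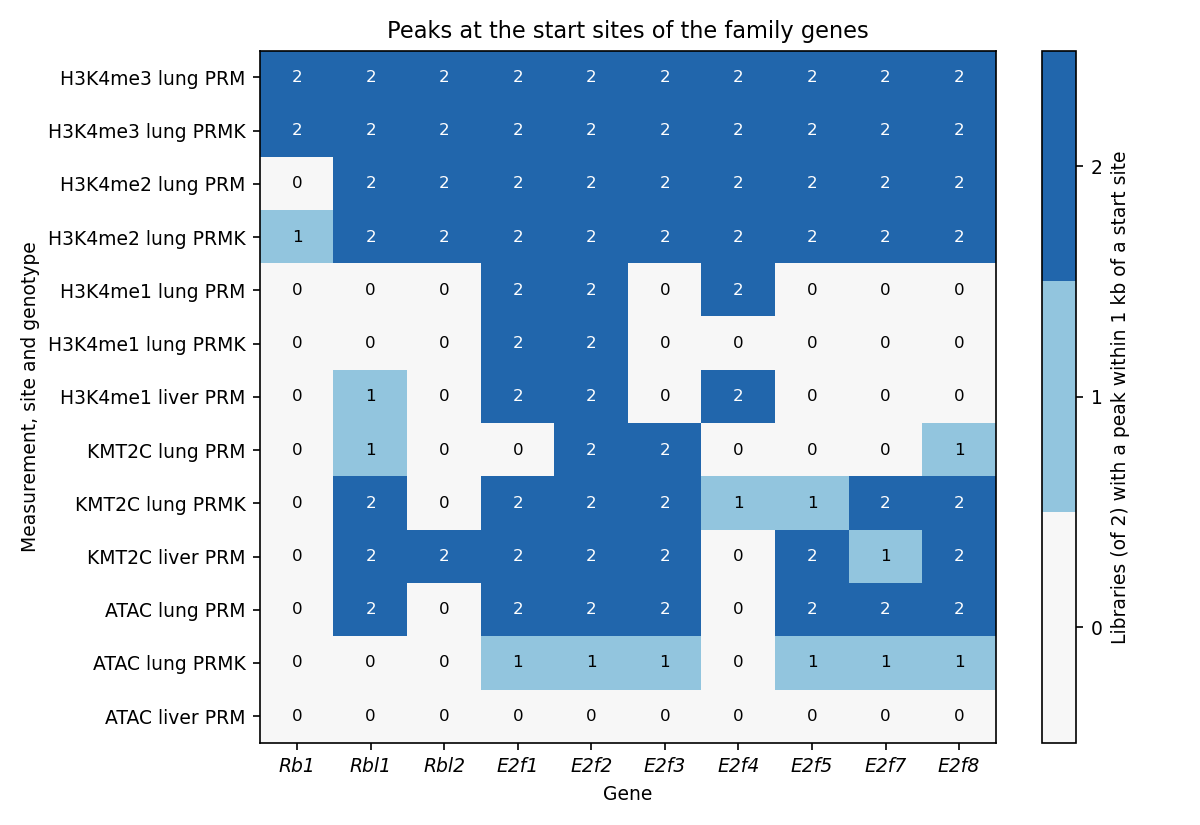
Number of libraries, of 2 in each group, with a called peak within 1 kb of a start site, for 13 groups (rows) and the 10 genes (columns). For Rb1, E2f4 and E2f5 either gene end was accepted as a start. H3K4me3 is complete in both genotypes, H3K4me1 is limited to E2f1, E2f2, E2f4 and 1 library of Rbl1, and KMT2C peaks are at 2 genes in both lung PRM libraries and at 6 in both lung PRMK libraries.

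KMT2C itself gave lists of very different length: 9949 and 16681 peaks in lung PRM and 187682 and 134561 in lung PRMK, whose tumours carry the Kmt2c guide, covering 21.0 and 29.6 Mb against 143.3 and 119.5 Mb. Counts between these genotypes follow the length of the lists, whose cause was not tested. Peaks were at 2 of 10 starts in both PRM libraries (E2f2 and E2f3, against 21.0% of genes) and at 6 in both PRMK libraries (Rbl1, E2f1, E2f2, E2f3, E2f7 and E2f8, against 50.9%). Within each list the first start of E2f3 stood high, at the 94.7th and 95.2nd percentile in PRM and the 99.4th and 99.3rd in PRMK. The second start of E2f2 was at the 90.2nd and 94.5th in PRM and the 99.3rd in both PRMK libraries. These are the 2 genes with a KMT2C peak at a start site in all 4 lung libraries. E2f1, Rbl2 and E2f4 also had KMT2C peaks in their windows in all 4.

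Of 101 KMT2C regions in the windows, 9 were kept (8.91%, against 3.03%), 28 gained (27.7%, against 20.8%) and 0 lost (0.258%). The gained regions fell in the windows of E2f7 (9), E2f1 (7), Rbl1 (6), E2f2 (2) and, with 1 each, Rb1, Rbl2, E2f3 and E2f8. In the E2f1 window, chr2:154548444-154550952 and chr2:154554051-154557416 lie inside Necab3. E2f7 had 0 and 0 KMT2C peaks in PRM and 22 and 16 in PRMK, and 0% and 0% against 28.9% and 22.1% of its window was covered. In the PRMK lists 12.2% and 17.0% of genes were covered as much as E2f7, and the median gene was at 7.74% and 6.38%. The 1 Mb to each side of it was covered to 8.97% and 7.36% in PRMK and to 0% and 0.0831% in PRM, so the region around the gene was also nearly empty in PRM. E2f1 was covered to 9.24% and 13.4% in PRM and to 48.5% and 53.0% in PRMK, a level that 2.51% and 1.40% of genes reached in the PRMK lists. Rb1, the longest gene of the family, had 0 KMT2C peaks in PRM and 7 and 8 in PRMK, covering 2.27% and 4.08%.

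**Figure D5:**
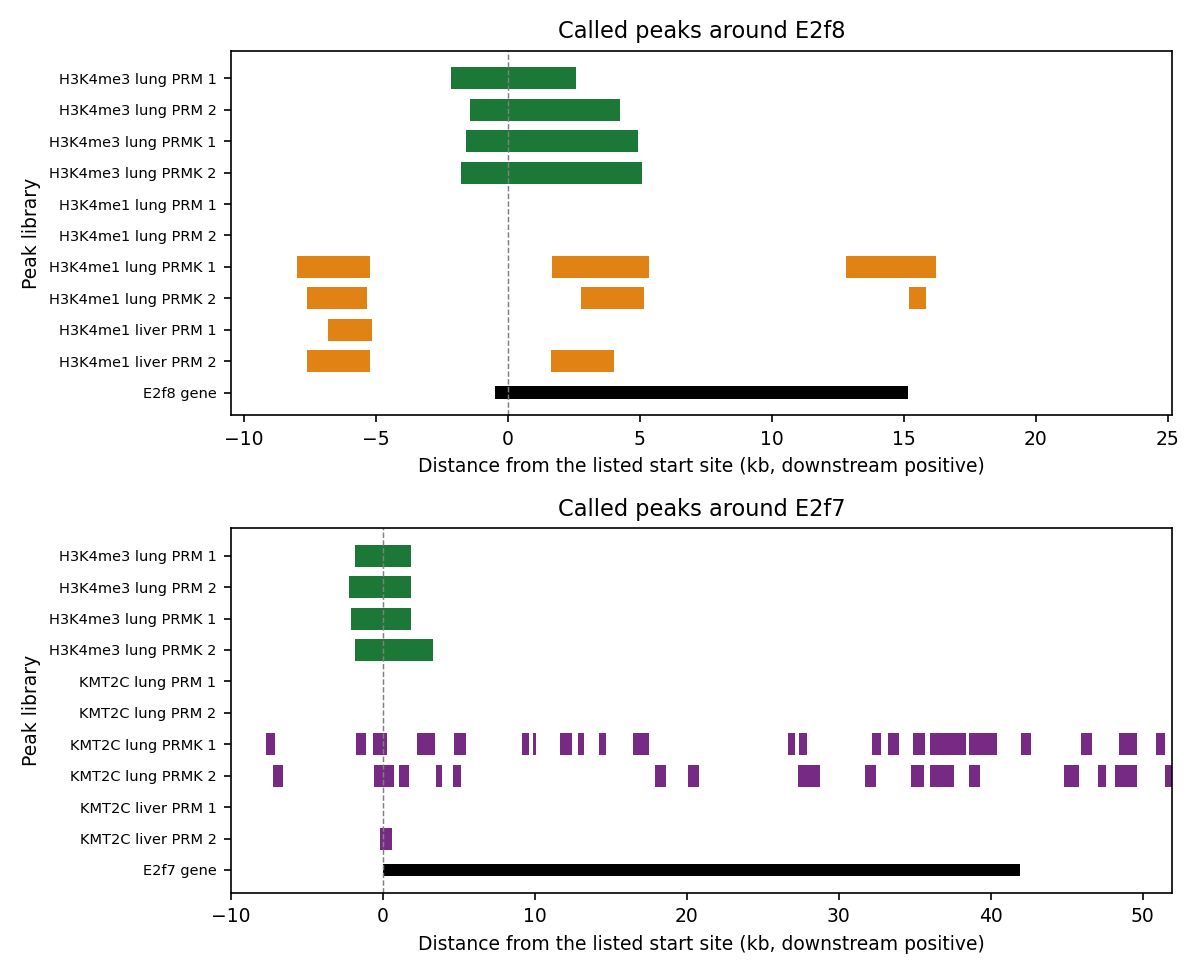
Called peaks around E2f8 (H3K4me3 and H3K4me1) and E2f7 (H3K4me3 and KMT2C) in each library, drawn by distance from the listed start site in kb, with the gene as a black bar. H3K4me3 covers both starts in all 4 lung libraries, H3K4me1 peaks at E2f8 are absent from both lung PRM libraries, and KMT2C peaks at E2f7 number 22 and 16 in the PRMK libraries and 0 in both lung PRM libraries.

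Open chromatin could be compared only in part. The ATAC lists held 64575 and 19815 usable peaks in lung PRM, 565 and 54175 in lung PRMK, and 313 and 120 in liver PRM. In lung PRM 7 starts were open in both libraries (Rbl1, E2f1, E2f2, E2f3, E2f5, E2f7 and E2f8, against 31.3% of genes). In lung PRMK library 2 alone, 6 of them were open (all but Rbl1), and in library 1 none was, so 0 were open in both (1.62% of genes). In liver PRM 0 of 10 were open in both (0.0183% of genes). E2f3 had the highest ATAC score, at the 99.7th and 99.4th percentile in PRM and the 99.8th in PRMK library 2. No ATAC library had a peak at Rb1 or in its window. Of 66 regions 0 were kept (0.323% of all regions), 0 gained (0.00808%) and 6 lost (9.09%, against 3.68%), and these counts rest on the short list of PRMK library 1.

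Liver PRM tumours were set beside lung PRM tumours for H3K4me1 and KMT2C. By the same rule, with either gene end accepted for E2f4, H3K4me1 marked E2f1, E2f2 and E2f4 in both liver libraries (11.6% of genes). Of 16 regions 8 were kept (50.0%, against 53.3%), 2 gained in liver (12.5%, against 4.11%) and 0 lost (1.02%). One gained region, chr7:48886743-48889202, lies upstream of E2f8 and overlaps the region gained there in lung PRMK. E2f8 was covered to 4.68% and 13.4% in liver, against 0% and 0% in lung PRM. The other gained region was chr2:154569981-154574851, upstream of E2f1. These gains moved with the rules: over gene bodies only, 0 of 9 regions were gained (4.11% of all regions). With an overlap of at least 50% of the region it was 1 of 16 (6.25%, against 4.19%). Among peaks at or above the median total signal of each list it was 0 of 9 (4.36% of all regions). KMT2C lists were longer in liver than in lung PRM, with 65201 and 113129 peaks, and 7 of 10 starts had a peak in both libraries (46.7% of genes). These were Rbl1, Rbl2, E2f1, E2f2, E2f3, E2f5 and E2f8. E2f2 was covered to 62.6% and 57.3% in liver, against 21.7% and 28.5% in lung PRM. Its place among genes was similar in both: 1.71% and 3.99% of genes were covered as much in liver, and 3.34% and 2.49% in lung PRM. E2f7 was covered to 0% and 1.31% in liver. The median gene was at 4.92% and 7.33% in liver and at 0% and 0% in lung PRM. The comparisons of lung PRM with lung PRMK and with liver share the lung PRM libraries.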

How the data were processed

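RNA was measured in 3 libraries a group and peaks in 2. Per the submitters' processing notes, STAR 2.6.0a and GRCm38 were used by the authors for RNA, and their deposited raw counts per gene were taken. The deposited tables also hold the authors' log2 fold changes and p-values, for which the notes name DESeq2, and the authors' TPM values, used only for implied gene lengths. Per the same notes, reads of peak libraries were aligned with Bowtie2 2.2.1 to mm10 and CUT&Tag peaks called with SEACR, whose deposited lists give total and highest signal. Each deposited ATAC peak has a score, and the sources used here name no caller for it.

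Counts were tested in R 4.3.3 with edgeR 4.0.16 (TMM, filter on low counts, quasi-likelihood test, Benjamini-Hochberg adjusted p under 0.05), with DESeq2 1.42.0 and limma 3.58.1 (voom) as alternatives, after a check on simulated counts. Each table was fitted on its own. Medians by chromosome used log2(CPM + 1). Peaks were merged over all libraries of a comparison with an overlap of 1 bp, in Python 3.11.15 (numpy 2.4.6, pandas 2.3.3, scipy 1.17.1, matplotlib 3.10.9). A symbol was missing from 24781 rows with the Meis2 guide, and gene IDs supplied 24552 of them. The depth of the peak libraries is unknown. Named genes were all 10 members, up to 4 of each list with the lowest p, and the driver genes, with further genes named after their values were seen. The members and lists were chosen with earlier results of these data known. Bisulfite, single-cell, S-adenosylmethionine and IgG samples are not analysed here, and 1 targeted gene is not reported here.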

Additional observations from a re-analysis of the deposited data

How the results depend on the processing

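In PRMK against PRM, edgeR called 0 genes with RLE scaling or no filter, 0 to 796 with each library left out (796 without PRM library 4), and limma voom 0. DESeq2 called 1275, and, in an alternative chosen after seeing the data, 220, 498 and 351 without PRMK libraries 1, 2 and 3 and 4018, 1460 and 2153 without PRM libraries 4, 5 and 6. Of the family DESeq2 called 1 gene, and 0 to 2 with each library left out. With the Meis2 guide, DESeq2 called 18 genes, limma voom 67 and edgeR 0 to 46 with each library left out (46 without sgMeis2 library 3), none of them in the family. The fold changes of the family that reversed were near 0. DESeq2 without PRM library 4 gave 0.032 for Rbl1. For the Meis2 guide, leaving out each library gave -0.0058 (without sgMeis2 library 1) to 0.062 for Rb1, -0.039 to 0.011 (without sgScramble library 1) for Rbl1, -0.027 (without sgMeis2 library 3) to 0.051 for E2f2 and -0.018 (without sgMeis2 library 1) to 0.104 for E2f4, and limma voom gave -0.012 for E2f2. The sgMeis2 and sgScramble samples share only a number: the deviations of same-numbered libraries correlated at 0.0092, -0.0047 and 0.027, and with the replicate number as a block edgeR called 0 genes. For PRMK against PRM no paired analysis was possible, because their columns share fewer than 2 numbers. No paired analysis was made of the peaks, which were not tested.

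Counts of regions moved with the rules, and shares over all regions follow each count. Over gene bodies only, H3K4me1 gained was 3 of 14 (21.4%, against 15.6%), H3K4me2 kept 10 of 15 (66.7%, against 42.0%) and gained 1, and KMT2C kept 5 of 67 (7.46%, against 3.03%). With an overlap of at least 50% of the region, H3K4me1 kept was 3 of 20 (15.0%, against 9.9%), KMT2C kept 4 of 101 (3.96%, against 1.43%) and lost 1 (0.99%, against 0.717%). Among peaks at or above the median total signal of each list, H3K4me1 kept was 2 of 16 (12.5%, against 27.8%) and gained 3 (18.8%, against 20.8%), H3K4me2 kept 9 of 17 (52.9%, against 41.6%) and gained 0 (7.66%), H3K4me3 kept 9 of 15 (60.0%, against 60.8%) and lost 2 (13.3%, against 5.38%), and KMT2C gained 18 of 57 (31.6%, against 23.6%). With no length scaling, the mean share of E2f1 was 23.9% in PRMK and 25.3% in sgScramble, and that of Rb1 was 13.2% in sgMeis2 and 12.97% in sgScramble. E2f7 then held 12.2% to 12.6% in PRMK and 7.07% to 11.03% in PRM, and E2f5 held 1.47% to 2.00% and 1.23% to 8.80%. Merged-exon and longest-transcript lengths were not run. The depth of the peak libraries is unknown, and ATAC in PRMK library 1 and in both liver libraries held too few peaks to show a difference at these genes.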
